A study of Mus musculus with 6 samples.

Results

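Mitochondrial protein quality control was followed through 10 nuclear genes, HSPA9, DNAJA3, GRPEL1, HSCB, HSPD1, HSPE1, TRAP1, LONP1, CLPP and CLPX, in RNA-Seq libraries of 22Rv1 cells, a human prostate cancer line. The genes were matched by gene name in a count table of 58735 genes, and all 10 were among the 17142 genes that passed the filter on low counts. HSPA9 was chosen by its fold change in the contrast reported here, and the other 9 were chosen by function with results of that contrast known. Their values are therefore a description, and no p is printed for them. Where they are said to pass or miss a false discovery rate threshold, this too is a description and not a test. The 2 groups were parental 22Rv1 cells kept with vehicle (3 libraries) and the subline 22Rv1 BL-B01D1_R (3 libraries), derived by culture in stepwise higher concentrations of BL-B01D1, an antibody-drug conjugate against EGFR and HER3 with a camptothecin-type topoisomerase I inhibitor as payload. The subline is a single selected line, the sources used here do not say whether drug was present at harvest, and nothing says that the libraries of a group came from separate cultures, so errors and p-values measure only the spread between these libraries.

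Nearly all mitochondrial proteins are made in the cytosol, enter as unfolded chains, and are pulled into the matrix by the mitochondrial HSP70 (mtHSP70, or mortalin), the product of HSPA9. There they are folded by mtHSP70 with its J-protein and nucleotide exchange partners and by the HSP60-HSP10 chaperonin. Chains that misfold are degraded by the ATP-dependent matrix proteases LON and ClpXP. This machinery is known for its high expression in tumor cells and for its link, through the transcription factors ATF4 and ATF5, to the mitochondrial stress response.

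In the resistant subline the mRNA of HSPA9 was at 0.478 of its parental level, both chaperonin subunits HSPD1 and HSPE1 were at 0.753 and 0.755 of it, and the protease LONP1 was at 0.868. The J-protein DNAJA3, the HSP90 paralog TRAP1 and the ClpXP subunits CLPP and CLPX differed by under 0.1 on the log2 scale. The 2 remaining partners of mtHSP70 among the 10 genes, GRPEL1 and HSCB, were somewhat higher in the resistant libraries. Of the 10 genes, 4 were lower at a false discovery rate (FDR) under 0.05 in edgeR's quasi-likelihood fit (HSPA9, HSPD1, HSPE1 and LONP1), where 18.4% of all tested genes were lower at that threshold. None was higher at that threshold, where 17.1% of all tested genes were higher. HSPA9 alone passed with a log2 fold change under -1 (2.84% of all tested genes), and none passed with one over 1 (2.53%). Since the contrast itself entered the choice of genes, nothing is read from these counts.

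**Figure D1:**
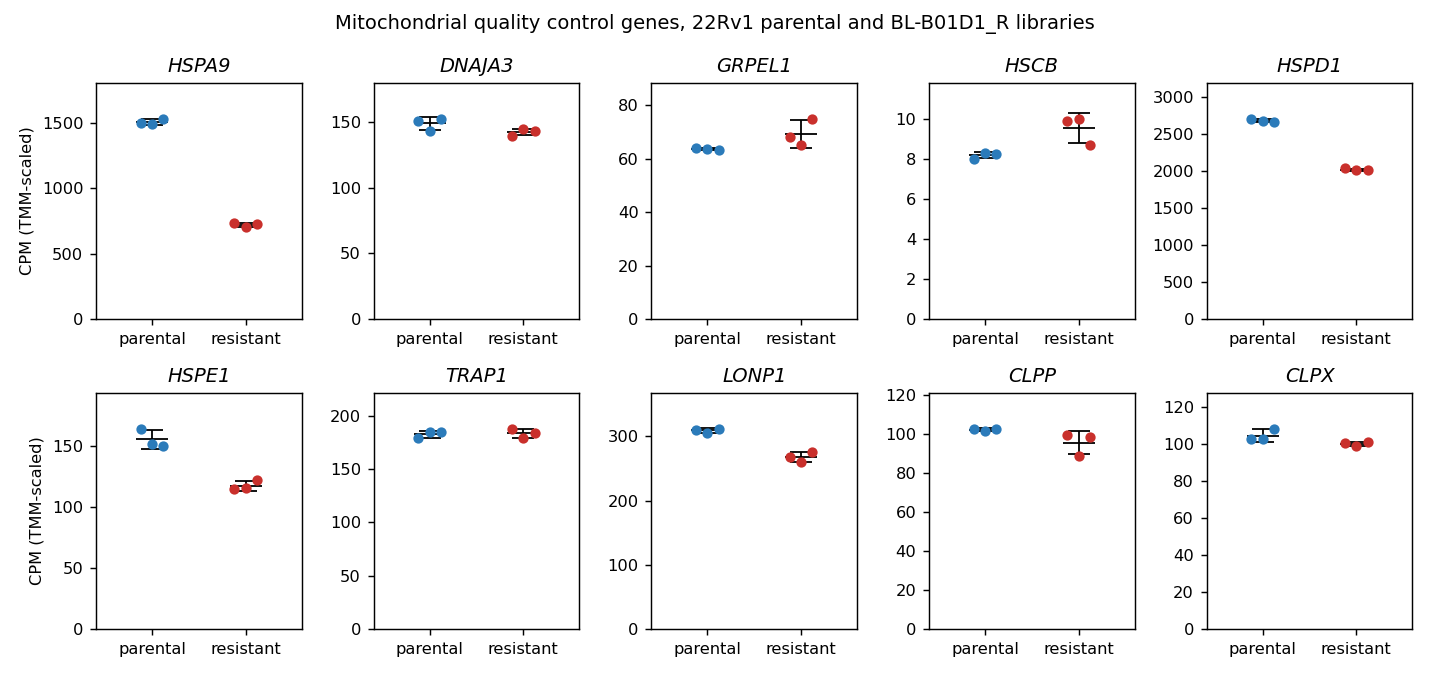
Each panel shows 1 gene, with counts scaled to a common library size of 1000000 after TMM adjustment (CPM, linear axis from 0) in the 3 parental (blue) and 3 resistant (red) libraries. Points are libraries, the long bar is the mean and the whiskers are 1 SD. The HSPA9 libraries sit between 1489 and 1530.35 CPM in parental cells and between 703 and 730.1 CPM in resistant cells, whereas those of DNAJA3 and TRAP1 overlap between the groups.

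Total counts were 13821639 to 17251491 in the parental and 14820809 to 16725283 in the resistant libraries, so that 3 counts corresponded to 0.174 to 0.216 CPM, and the biological coefficient of variation of the fit was 3.51%. All 9 prostate luminal markers (FOLH1 and KRT8 among them) exceeded 1 CPM in every library, with a summed level of 3380 to 3480 CPM in parental and 3578 to 3664 CPM in resistant libraries. Of these markers, 2 were lower (HOXB13 and KRT18) and 6 higher at FDR under 0.05, beside 18.4% and 17.1% of all tested genes. The log2 fold changes of the 9 markers ran from -0.48 (HOXB13) to 0.91 (KLK3). Of 10 markers of fibroblasts, smooth muscle, endothelium and leukocytes, 4 had over 3 counts in any library, CD3E was at 0 throughout, and PTPRC, CD68, PECAM1, VWF and COL1A2 had at most 3 counts. Their summed level was 112 to 116 CPM in parental and 40.1 to 44.8 CPM in resistant libraries and moved with LUM, a collagen-binding proteoglycan, at a mean of 96.0 and 28.8 CPM. The part of this difference in the results below was not tested. In libraries made from whole cultures, fewer cells expressing a gene and less RNA per cell cannot be told apart.

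HSPA9 (ENSG00000113013, hg38 chr5:138553756-138575724, minus strand) encodes the ATPase that drives import and folding in the matrix and also hands iron-sulfur clusters to acceptor proteins. The raw counts were 25810, 25000 and 21243 for parental cells against 12103, 10343 and 11767 for resistant cells. Scaled to CPM, the parental libraries stood at 1497, 1489 and 1530.35 and the resistant ones at 730.1, 703 and 725. Every resistant library was far below every parental library, and the spread within each group was small, with a coefficient of variation of 1.46% in parental and 1.99% in resistant cells. The mean level went from 1505 ± 22.0 CPM (SD, n = 3) to 719 ± 14.4 CPM (SD, n = 3). This was a log2 fold change of -1.06 (SE 0.024, 95% interval -1.11 to -1.02), or a change of -52.2% in level.

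HSPA9 was among the most abundant mRNAs of these cells, ranking 29 by parental mean CPM among the genes tested. By fold it ranked 448 from the lowest among the 17142 genes. By the difference in mean CPM, -786, it ranked 3 from the largest loss, followed by HSPD1 with a difference of -663 CPM. HSPA9 was chosen by its fold change and HSPD1 with results of this contrast known, so nothing is read from these ranks. Of the 61 genes with a parental mean of at least 1000 CPM, 3 had a log2 fold change under -1. Over all tested genes, 2.84% had one under -1 at FDR under 0.05. The 3 were HSPA9, chosen by its fold change, and the genes for the heavy and light chain of an amino acid transporter, SLC3A2 and SLC7A5. The transporter genes were named after their values were seen, and nothing is read from this count.

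DNAJA3 encodes the mitochondrial J-protein (Tid1) that stimulates the ATPase of mtHSP70 in folding. Its levels were 150.7, 143.2 and 152.4 CPM in the parental and 139.5, 144 and 143 CPM in the resistant libraries. The groups overlapped, and the log2 fold change was -0.06 (SE 0.037, 95% interval -0.14 to 0.01). GRPEL1 encodes the nucleotide exchange factor that releases ADP from mtHSP70. It was at 64.1, 63.7 and 63.2 CPM in the parental and 68.0, 65.0 and 75.0 CPM in the resistant libraries, with a log2 fold change of 0.12 (SE 0.052, 95% interval 0.02 to 0.23). Every resistant library was above every parental library, but the resistant libraries varied more (coefficient of variation 7.41% against 0.728%), and FDR 0.05 was not reached. GRPEL1 passed in the higher direction when resistant replicate 2 was left out or when protein-coding genes alone were fitted, whereas without resistant replicate 3 its log2 fold change was 0.06.

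HSCB, the J-protein that brings mtHSP70 to the iron-sulfur scaffold, was the least abundant of the 10 genes, with 114 to 164 counts in a library. It was at 8.01, 8.28 and 8.21 CPM in the parental and 9.89, 9.99 and 8.69 CPM in the resistant libraries. The groups did not overlap, yet the interval of the log2 fold change of 0.22 (SE 0.12, 95% interval -0.03 to 0.47) included 0. The 5′ end of HSCB (hg38 chr22:28742031-28757515, plus strand) overlapped a gene on the opposite strand (hg38 chr22:28687743-28742422). Over its whole length that gene had up to 543% of the counts of HSCB. Reads in the shared stretch cannot be told apart if counting ignored strand. Of the 3 partners of mtHSP70 among the 10 genes, none was lower with HSPA9 beyond the spread of the libraries. Other partners are given below with the import motor, where 1 of 10 tested genes was lower (TIMM44) and 2 were higher.

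HSPD1 (ENSG00000144381, hg38 chr2:197486581-197516737, minus strand) encodes HSP60, the ring that encloses and folds imported chains. Parental libraries had 2709, 2682 and 2658 CPM of it, and resistant libraries 2036, 2013 and 2011 CPM. All resistant libraries were below all parental libraries, at a log2 fold change of -0.41 (SE 0.021, 95% interval -0.45 to -0.37). HSPE1 (hg38 chr2:197499994-197503457, plus strand) encodes HSP10, the lid of that ring, and its span lies inside that of HSPD1 on the opposite strand. HSPD1 had up to 1770% of the counts of HSPE1, so reads of HSPD1 counted for HSPE1, if strand was ignored, could bear on the HSPE1 values and on the ratio of the pair, and their part was not tested. It was at 165, 152 and 150.2 CPM in the parental and 115, 115 and 122 CPM in the resistant libraries. It too was lower in every resistant library, with a log2 fold change of -0.41 (SE 0.039, 95% interval -0.48 to -0.33), which differed from that of HSPD1 by less than its SE. In percent, the mean level changed by -24.7% for HSPD1 and by -24.5% for HSPE1.

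Near-identical processed pseudogenes exist for both chaperonin genes. Of 17 genes named after HSPD1, 2 had at least 10 counts in a library (HSPD1P1 and HSPD1P4), and of 27 named after HSPE1, including the read-through gene HSPE1-MOB4, 1 did (HSPE1P2). HSPD1P1 had 370, 352 and 342 counts in the parental and 264, 274 and 228 counts in the resistant libraries, a log2 fold change of -0.46. HSPD1P4 and HSPE1P2 had log2 fold changes of -0.64 and -0.56 at no more than 42 and 26 counts. All named pseudogenes together had at most 1.01% of the counts of HSPD1, 1.82% of those of HSPE1 and 0.017% of those of HSPA9. With those counts added to the parent gene, the log2 fold change stayed at -0.41 for HSPD1 and at -0.41 for HSPE1.

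TRAP1 encodes the mitochondrial HSP90 paralog. Its levels of 179, 185 and 185 CPM in the parental and 188, 179.5 and 184 CPM in the resistant libraries overlapped. The log2 fold change was 0.01 (SE 0.034, 95% interval -0.06 to 0.08). Its sign turned when libraries were scaled by their size alone or when parental replicate 1 or resistant replicate 1 was left out (-0.01 in each). TRAP1 (hg38 chr16:3651639-3717597, minus strand) overlapped DNASE1 on the opposite strand (hg38 chr16:3611728-3680143). Over its whole length DNASE1 had up to 33.4% of the counts of TRAP1, and the part of reads from the shared stretch was not tested.

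LONP1 (hg38 chr19:5691834-5720572, minus strand) encodes the LON protease, which removes oxidized and misfolded matrix proteins. It was at 310.4, 305 and 312 CPM in the parental and 268, 261 and 276 CPM in the resistant libraries. Every resistant library was lower, at a log2 fold change of -0.20 (SE 0.030, 95% interval -0.27 to -0.14), or a change of -13.2% in level. At its 3′ end LONP1 shared only a short stretch with RPL36 on the opposite strand (hg38 chr19:5674947-5691876). Over its whole length RPL36 had up to 110.1% of the counts of LONP1, and the part of reads from the shared stretch was not tested. The interval of LONP1 did not reach those of the chaperonin genes. CLPP, the proteolytic ring of ClpXP, was at 103, 102 and 103 CPM in the parental and 99.4, 88.9 and 98.5 CPM in the resistant libraries, with a log2 fold change of -0.10 (SE 0.043, 95% interval -0.18 to -0.01). CLPX, the unfoldase of ClpXP, was at 103, 102 and 108 CPM in the parental and 100.1, 98.8 and 101 CPM in the resistant libraries, with a log2 fold change of -0.06 (SE 0.041, 95% interval -0.14 to 0.02). For both ClpXP genes the resistant libraries lay just below the parental ones without reaching FDR 0.05, except that CLPP reached it when libraries were scaled by their size alone. Without resistant replicate 2 the log2 fold change of CLPP was -0.05. Over the 10 genes, 6 had every resistant library below every parental library (22.8% of all tested genes) and 2 had every one above (22.1%), from which, as above, nothing is read.

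**Figure D2:**
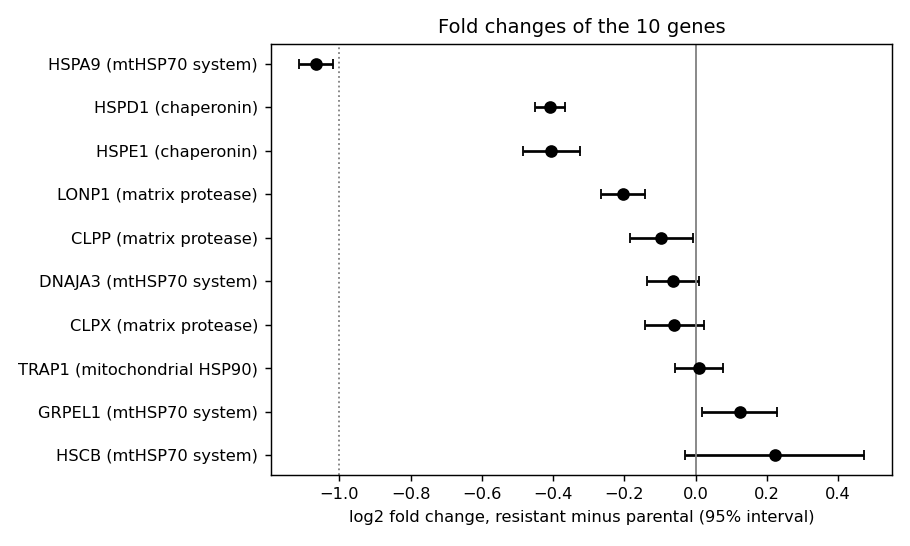
Log2 fold changes, resistant minus parental, of the 10 genes with 95% intervals from the edgeR fit (3 libraries a group), ordered from the lowest at the top, with the role of each gene in parentheses and a dotted line at -1. HSPA9 at -1.06 lies apart, HSPD1 and HSPE1 coincide at -0.41, LONP1 follows at -0.20, and the intervals of DNAJA3, CLPX, TRAP1 and HSCB include 0.

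Levels were compared between genes as FPKM, the CPM divided by the gene length of the table in kilobases. These lengths cover all annotated exons of a gene, and the order of genes depends on them. In parental cells the order was HSPD1 (632 ± 6.01 FPKM), HSPA9 (182 ± 2.66), HSPE1 (78.7 ± 3.95), LONP1 (60.8 ± 0.69), CLPP (44.9 ± 0.26), TRAP1 (35.0 ± 0.64), DNAJA3 (21.0 ± 0.69), CLPX (19.1 ± 0.60), GRPEL1 (15.2 ± 0.11) and HSCB (5.58 ± 0.10 FPKM, SD, n = 3 each). The resistant libraries kept this order, with HSPD1 at 476 ± 3.29 FPKM, HSPA9 at 87.2 ± 1.74 FPKM and HSPE1 at 59.5 ± 1.99 FPKM. The closest neighbors were CLPX at 18.3 ± 0.19 FPKM and GRPEL1 at 16.6 ± 1.23 FPKM in resistant cells, a gap little larger than the SD of GRPEL1. Among all tested genes, HSPA9 moved from the 99.2 to the 97.7 percentile of FPKM and HSPD1 from 99.8 to 99.7, so both remained among the most highly expressed genes.

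Put together, the 10 genes summed to 1095 ± 8.20 FPKM in parental and 814 ± 9.28 FPKM in resistant cells. They took 0.527% to 0.529% of all counts in the parental and 0.365% to 0.372% in the resistant libraries. Of the summed FPKM, HSPA9 made up 16.7% ± 0.29 in parental and 10.7% ± 0.094 in resistant cells, whereas HSPD1 made up 57.7% ± 0.32 and 58.5% ± 0.58 (SD, n = 3). HSPA9, chosen by its fold change, was the only one of the 10 whose share of the sum was smaller in the resistant cells. Transcripts of the mitochondrial genome, which are not among the 10 genes, took 4.19% to 4.21% of counts in the parental and 5.10% to 5.35% in the resistant libraries.

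Ratios of FPKM within a library describe the balance between genes. HSPA9 to HSPD1 was 0.284, 0.286 and 0.296 in the parental and 0.184, 0.180 and 0.185 in the resistant libraries. HSPD1 to HSPE1, the 2 parts of the chaperonin, was 8.037 ± 0.324 in parental and 8.003 ± 0.297 in resistant cells, a difference well within the SD. The ratio of HSPA9 to its exchange factor GRPEL1 was 11.97 ± 0.25 in parental and 5.27 ± 0.33 in resistant cells, and that to its J-protein DNAJA3 was 8.67 ± 0.21 and 4.33 ± 0.15. The ratio of CLPX to CLPP, the 2 parts of ClpXP, was 0.425 ± 0.013 and 0.437 ± 0.023. Within the chaperonin and within ClpXP the ratios overlapped between the groups. LONP1 to CLPP was 1.354 ± 0.010 in parental and 1.259 ± 0.053 in resistant cells, and was lower in every resistant library. Every ratio of HSPA9 to a partner was also lower in all resistant libraries than in any parental library. HSPA9 was chosen by its fold change, so its lower ratios to genes that changed less follow from that choice.

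**Figure D3:**
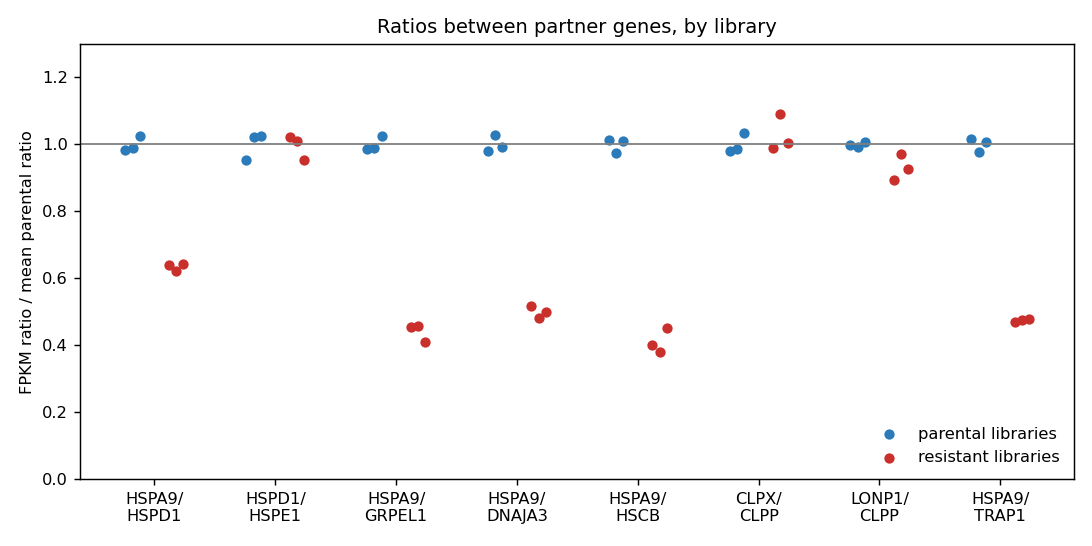
FPKM ratios between partner genes in each of the 3 parental (blue) and 3 resistant (red) libraries, each divided by the mean parental ratio of that pair (vertical axis, linear, from 0; 1 is the parental mean). All ratios with HSPA9, chosen by its fold change, as numerator lie clearly under 1 in the resistant libraries. LONP1/CLPP is also lower in every resistant library, while HSPD1/HSPE1 and CLPX/CLPP overlap between the groups.

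The genes around HSPA9 were examined on the same scale. Of 27 other tested genes within 1 Mb of it, 7 were lower and 5 higher at FDR under 0.05, beside 18.4% and 17.1% of all tested genes, none with a log2 fold change under -1, and their median log2 fold change was -0.06. The lowest was REEP2 at -0.58. Around HSPD1 and HSPE1, 3 of 13 were lower and 2 higher, beside the same shares, with a median of -0.06. Small nucleolar RNA SNORD63, in HSPA9, had at most 6 counts in any library.

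The genes whose profile over the 6 libraries was nearest to that of HSPA9 were CD44, NETO1, YBX2, BCL9L and MID1. Likeness was the root mean square difference of log2 CPM profiles, each centered on its own mean, and was 0.039 for CD44, a cell surface receptor for hyaluronan, and 0.045 to 0.058 for the other 4. CD44 was at 55.6, 53.8 and 52.7 CPM in the parental and 25.9, 24.1 and 25.8 CPM in the resistant libraries. With another prior count 3 of these 5 genes stayed among the nearest, and with library size alone 4 did. None of the 5 is a mitochondrial chaperone or protease. Among the genes tested, HSPD1 ranked 1010 and HSPE1 ranked 1066 in likeness, at 0.329 and 0.336. The libraries of a group lay close together, so this measure mostly restates the fold change, and nothing more is read from it. The 5 nearest genes had log2 fold changes of -1.15 to -1.01.

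Beyond the 10 genes, 8 lists of genes that work beside them were examined with edgeR's quasi-likelihood test and Benjamini-Hochberg adjustment over all 17142 genes. The lists were drawn up by function but with earlier results of these data known, so their FDR values are not tests set blind to the data. The lists held 101 genes, of which 96 were tested, 14 were lower, 19 were higher and 63 did not pass. Over all tested genes 18.4% were lower and 17.1% higher at that threshold, so the lists as a whole stood near the background, and the count of each list is to be read beside these shares. None passed with a log2 fold change past 1 in either direction. The median log2 fold change was 0.02, beside 0.004 over all tested genes and -0.08 over the 10 genes.

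**Figure D4:**
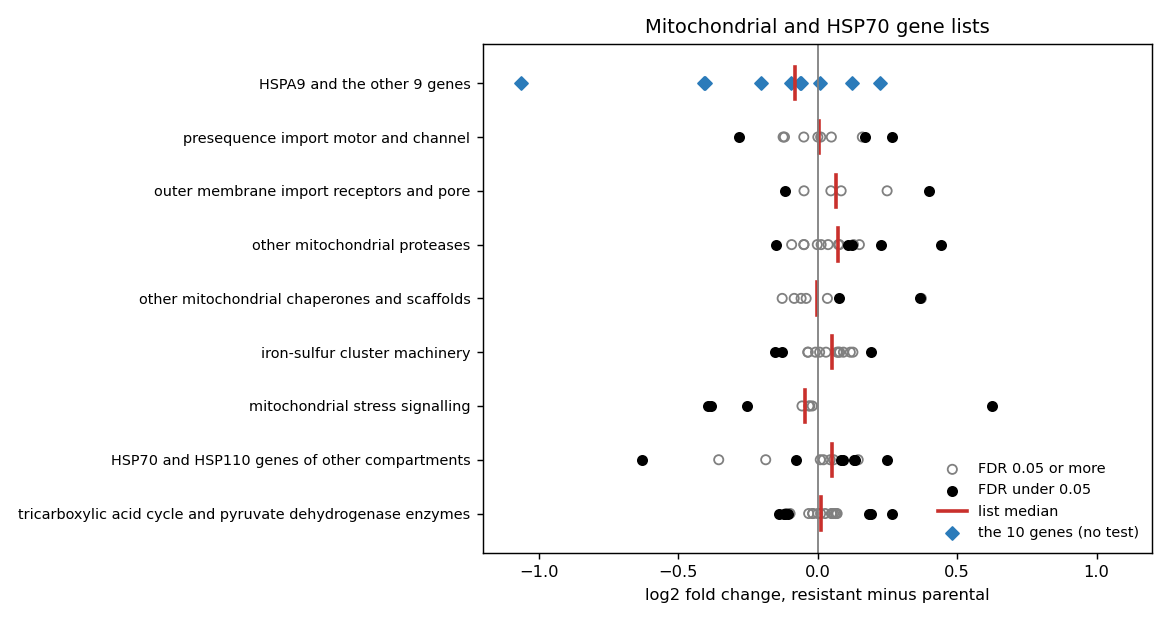
Log2 fold changes, resistant minus parental, of the 10 genes (blue diamonds, top, no test) and of the tested genes of 8 lists (filled, FDR under 0.05; open, FDR 0.05 or more), with the median of each as a red bar. The list genes lie between -0.63 (HSPA13) and 0.62 (ATF5), and none passes -1. HSPA9, chosen by its fold change, lies at -1.06.

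Of the presequence import motor and its channel, 10 of 12 genes were tested, 1 was lower and 2 were higher (median 0.01). TIMM44, which tethers mtHSP70 to the channel, fell from 119 to 98.0 mean CPM (log2 fold change -0.28, SE 0.043, FDR 8.43e-07). DNAJC19, a J-protein of the inner membrane, rose from 40.4 to 48.5 mean CPM (log2 fold change 0.26, SE 0.062, FDR 0.000632). ROMO1 also rose (log2 fold change 0.17, FDR 0.0128), a call lost without parental replicate 2 or without resistant replicate 2. The channel subunit TIMM23 was at 0.00 and the J-related PAM16 at 0.16 on the same scale without passing.

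At the outer membrane, 6 of 7 genes of the TOM complex were tested. TOMM7, a small subunit of the pore, rose from 91.5 to 121 mean CPM (log2 fold change 0.40, SE 0.040, FDR 5.29e-11), and TOMM40, the pore itself, fell by 0.12 on the log2 scale (SE 0.033, FDR 0.00391), a call lost without resistant replicate 2. The other 4 tested, the receptor gene TOMM20 among them, did not pass, and the list median was 0.07.

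All 15 other mitochondrial proteases were tested, and 1 was lower and 4 were higher (median 0.07). YME1L1, a protease of the inner membrane, fell by 0.15 on the log2 scale (SE 0.034, FDR 0.000419). LACTB, a protein of the intermembrane space, rose from 21.9 to 29.8 mean CPM (log2 fold change 0.44, SE 0.075, FDR 6.86e-06). XPNPEP3, a matrix aminopeptidase, rose by 0.23 (SE 0.067, FDR 0.00652), a call lost with limma on FPKM, and PMPCB, a subunit of the presequence peptidase, rose by 0.11 (SE 0.034, FDR 0.00986). Among 8 other chaperones and scaffolds, none was lower and 2 were higher, DNAJC30 (log2 fold change 0.37, SE 0.078, FDR 0.000184) and the prohibitin PHB2 (0.07, SE 0.029, FDR 0.0383). The call of PHB2 held in 6 of 15 alternative fits.

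Of 15 genes of iron-sulfur cluster assembly, the process in which mtHSP70 acts with HSCB, 14 were tested (median 0.05). ISCA1 and GLRX5, which act after the scaffold step, fell by 0.15 and 0.13 on the log2 scale (FDR 0.0268 and 0.0256), and FDXR, the ferredoxin reductase, rose by 0.19 (FDR 0.0346). These 3 calls were close to the threshold and held in 9, 9 and 8 of 15 alternative fits. The scaffold ISCU was at -0.04 and the desulfurase NFS1 at 0.12 without passing.

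All 8 genes of mitochondrial stress signaling were tested, and 3 were lower and 1 was higher (median -0.04). ATF4, the transcription factor of the integrated stress response, was at 436, 415 and 426 CPM in the parental and 315, 323 and 332 CPM in the resistant libraries. It fell in every resistant library (log2 fold change -0.40, SE 0.029, FDR 9.17e-15). ATF5, a factor of the mitochondrial unfolded protein response, was at 21.8, 18.8 and 21.4 CPM in the parental and 29.9, 34.2 and 31.6 CPM in the resistant libraries. It rose in every resistant library (log2 fold change 0.62, SE 0.079, FDR 1.69e-08), so that the 2 factors moved in opposite directions. CEBPB, a leucine zipper factor, fell by 0.38 (SE 0.066, FDR 9.45e-06), and EIF2AK1, the kinase HRI that relays mitochondrial stress, fell by 0.25 (SE 0.029, FDR 1.94e-09). DDIT3 (CHOP) was at -0.06 and DELE1, the mitochondrial partner of HRI, at -0.03, and neither passed.

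Of 15 HSP70 and HSP110 genes of other compartments, 14 were tested, 2 were lower and 5 were higher (median 0.05). HSPA13, a microsomal HSP70, fell from 155 to 100.1 mean CPM (log2 fold change -0.63, SE 0.040, FDR 4.89e-17). HYOU1, an exchange factor of the endoplasmic reticulum, fell by 0.08 (FDR 0.0336), a call that held in 7 of 15 alternative fits. HSPH1 and HSPA4, cytosolic HSP110 proteins, rose by 0.25 and 0.13 (FDR 1.45e-05 and 0.000798). The constitutive cytosolic HSPA8 was at 1322 mean CPM in parental and 1407 in resistant cells (log2 fold change 0.09, FDR 0.0015), and HSPA5 of the endoplasmic reticulum at 740.0 and 783 (0.08, FDR 0.0108), both named after their values were seen. The call of HSPA5 held in 12 of 15 alternative fits.

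As a reference for other mitochondrial enzymes, 21 genes of the tricarboxylic acid cycle and pyruvate dehydrogenase were tested, of which 4 were lower and 3 higher (median 0.01). SDHB and DLAT fell by 0.14 and 0.12 on the log2 scale (FDR 0.00397 and 0.00481), and SDHC and DLD rose by 0.27 and 0.19 (FDR 2.88e-09 and 5.71e-06). Citrate synthase (CS) was at -0.02 and did not pass. No member of this list differed by as much as HSPD1. HSPD1 was chosen with results of this contrast known, so nothing is read from that comparison.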

How the data were processed

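RNA-Seq of 6 libraries was used. The authors trimmed reads (fastp), mapped them to hg38 (HISAT2 2.0.5) and counted reads per gene (featureCounts 1.5.0-p3), and deposited raw counts with gene length as another quantity. Annotation release and strand setting are not given in the sources used here. The labels name mouse, but the identifiers are human and were read as human. The 10 genes, the lists and the rule for names were chosen with earlier results of these data known. Column names give Parent where labels give control, and these were taken as the same group.

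Genes passing filterByExpr were fitted with edgeR 4.0.16 (R 4.3.3) on TMM-scaled libraries, with quasi-likelihood tests and Benjamini-Hochberg adjustment. CPM and FPKM were computed with TMM-adjusted library sizes, and the SE is the log2 fold change divided by the square root of F. Within a group, library pairs differed beyond sampling noise (chi-square per degree of freedom 1.77 to 2.45). Each library was counted as 1 sample, though such a spread does not show that the libraries came from separate cultures. Named were all 10 genes, in each list the genes past an absolute log2 fold change of 1 and the 2 highest and 2 lowest past FDR 0.05, the 5 nearest profiles, and pseudogenes with at least 10 counts. A few further genes without a call are named with values as landmarks. Alternatives were DESeq2 1.42.0, limma-voom and limma on log2(FPKM + 1) (limma 3.58.1), library size alone, upper quartile, all genes with a count, a minimum of 10 counts in each library, protein-coding genes only, pseudogene counts added, the replicate number as a block, and each library left out. The fit was checked on simulated data. Columns of per-sample values not used numbered 0. No human genome sequence was used here.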

Additional observations from a re-analysis of the deposited data

How the results depend on the processing

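Of 544 values recomputed under alternatives, 496 stayed within the replicate spread or within 1.5 times the count. Another 48 moved and 0 reversed a called direction. Among the 10 fold changes, only those of the 4 genes with a call could be marked as reversed, and counts of genes could not be. The turned sign of TRAP1, which had no call, was therefore not marked. HSPA9 stayed between -1.08 and -1.05 under 10 alternatives and between -1.07 and -1.05 with a library left out. The lower genes of the 10 numbered 4 or 5 (4 with any library left out), and the higher ones numbered 1 with protein-coding genes only and 0 to 1 with a library left out (GRPEL1). The lower genes of the 8 lists numbered 14 in the main fit and 10 to 20 under 9 alternatives (20 with library size alone). With a library left out they numbered 9 to 13, and 9 without resistant replicate 2. The higher genes of the lists numbered 19, 15 to 22 under 9 alternatives and 15 to 20 with a library left out. Over all genes, limma on log2(FPKM + 1) called 64 lower and 116 higher past a log2 fold change of 1, and the 10-count filter 287 and 248, against 487 and 434. Replicate numbers did not pair the libraries (correlations of same-numbered libraries -0.0081, -0.020 and -0.016). With the replicate block, 471 and 418 genes were called, HSPA9 was at -1.07 and 4 of the 10 genes were lower. Scaling by library size alone moved the median of all genes to -0.01. With 3 libraries a group from 1 resistant line, selection, clonal drift and drug exposure cannot be told apart, and HSCB, at 114 to 164 counts, was the least precise.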
